A study of Bos taurus with 53 samples.

Results

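GATA4, SOX17, FOXA2, HNF4A and PDGFRA mark the hypoblast, the inner extraembryonic layer of the early embryo that lines the yolk sac. The 5 genes were chosen by their symbols, and all 5 were found among 24596 features, of which 18541 carried a gene name. Messenger RNA had been sequenced from bovine embryos flushed on day 14, each of which was scored as tubular, ovoid or spherical and, in most cases, cut into the embryonic disc (ED) and the extraembryonic tissue around it (EX). Their oocytes had been matured in vitro in CONTROL medium, which held neither added fatty acid nor solvent, in BASAL medium with stearic acid at 28 µM, palmitic acid at 23 µM and oleic acid at 21 µM in 0.45% ethanol, or in HIGH PA medium, which differed from BASAL in palmitic acid at 150 µM. All oocytes were then fertilised and cultured in vitro, and blastocysts were placed on day 7.7 into recipient cows, 8 to a cow. The 53 libraries came from 30 embryos and 7 cows and comprised 12 BASAL, 8 HIGH PA and 3 CONTROL discs, 14 BASAL, 10 HIGH PA and 4 CONTROL extraembryonic samples, and 2 undissected HIGH PA embryos. Both tissues were sequenced for 23 embryos. All 4 CONTROL embryos were flushed from 1 cow, which also carried 3 BASAL embryos and 1 HIGH PA embryo, so CONTROL holds no difference between cows.

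In the mammalian blastocyst the inner cell mass separates into epiblast, which forms the embryo proper, and hypoblast (primitive endoderm). FGF signalling through ERK favours the hypoblast fate, and GATA factors, SOX17, FOXA2 and HNF4A then act in turn in the endoderm programme. PDGFRA, the receptor tyrosine kinase for PDGF-A, is a surface marker of the same cells. By the time ruminant embryos elongate, hypoblast lies both beneath the disc and along the inside of the trophectoderm, so each of the dissected tissues holds it. SOX17 and FOXA2 are also expressed in definitive endoderm, and PDGFRA and GATA4 in mesoderm, both of which arise in the disc at gastrulation.

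In the authors' table, on the UMD3.1 cattle genome, GATA4 (ENSBTAG00000005425) lies on chromosome 8 at 7478856 to 7527262 with 6 exons, SOX17 (ENSBTAG00000005748) on chromosome 14 at 23884842 to 23886642 with 2 exons, and FOXA2 (ENSBTAG00000012407) on chromosome 13 at 41910591 to 41911910 with 1 exon. HNF4A (ENSBTAG00000012116) lies on chromosome 13 at 73547468 to 73574144 with 10 exons and PDGFRA (ENSBTAG00000007173) on chromosome 6 at 71373513 to 71421283 with 23 exons. Exons covered 3099 bases in GATA4, 1233 in SOX17, 1320 in FOXA2, 1552 in HNF4A and 6722 in PDGFRA. Over all libraries the genes held 8022, 3408, 598, 4428 and 7033 exon reads in that order, so FOXA2 was the least precisely measured. For each gene 100% of the exon reads were uniquely placed.

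Discs were sequenced less deeply than extraembryonic samples, at a median of 2431185 against 7626607.5 exon reads. The libraries ED BASAL replicate 7 and EX BASAL replicate 7 held 6814 and 9810 reads and enter the fits but not the levels, which are counts per 1000000 exon reads (CPM), leaving 22 discs, 27 extraembryonic samples and 22 embryos with both. ED HIGH PA replicate 5 held 119116 reads, ED CONTROL replicate 1 held 284848 and EX HIGH PA replicate 9 held 340016. The 7 marker genes of the epiblast summed to between 156 and 1555 CPM in discs and between 20.8 and 428 CPM in extraembryonic samples, and the 14 of the trophectoderm to between 9133 and 22911 CPM and between 19295 and 40398 CPM. In ED BASAL replicate 12 the epiblast genes SOX2 and NODAL were at 0 of 2500029 reads, which allows 3 reads each, for counting error only. RNA of the trophectoderm markers was thus found in every disc, and its part in the disc values was not tested. Discs were run on lanes 1 (10), 2 (11) and 3 (2) and extraembryonic samples mostly on lanes 3 (8), 4 (12) and 8 (5), and the RNA kit differed between the tissues.

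Compared per kilobase of exon, GATA4 and HNF4A had the highest mean levels in discs, followed by SOX17, PDGFRA and FOXA2. Mean levels per kilobase in the 22 discs were 29.1 CPM for GATA4, 28.9 for HNF4A, 23.2 for SOX17, 11 for PDGFRA and 5.97 for FOXA2. GATA4 and HNF4A were not distinguished (12 of 22 discs in that order, p = 0.533 by a two-sided permutation test of log2 levels, with p adjusted over the 4 neighbouring pairs of each tissue), nor were HNF4A and SOX17 (17 of 22, adjusted p = 0.533). SOX17 exceeded PDGFRA in 21 of 22 discs (adjusted p = 8e-05, permutation) and PDGFRA exceeded FOXA2 in 19 (adjusted p = 0.0112). In the 27 extraembryonic samples the order was SOX17 (7.56 CPM per kilobase), HNF4A (6.03), GATA4 (6.00), PDGFRA (2.91) and FOXA2 (0.893). There SOX17 exceeded HNF4A in 18 samples (adjusted p = 0.0282), HNF4A and GATA4 were not distinguished (adjusted p = 0.461), and both lower steps were past the threshold (adjusted p = 8e-05 each, permutation tests).

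All 5 genes were lower in extraembryonic tissue than in the disc of the same embryo. GATA4, a zinc finger factor of the endoderm, ran from 15.2 through a median of 92.9 to 160.1 CPM in the 22 discs and from 9.54 through 16.7 to 35.6 CPM in the 27 extraembryonic samples. Of the discs 20 lay above every extraembryonic sample, and the disc was the higher part in 21 of 22 embryos, with a median ratio of 5.27. The paired fit blocked on embryo (quasi-likelihood test in edgeR, Benjamini-Hochberg adjusted over all genes). In it, extraembryonic GATA4 had a log2 fold change against the disc of -2.07 (SE 0.180, adjusted p = 5.41e-11), a 4.20-fold difference. At an adjusted p below 0.05 a gene is named called, and 30.8% of the 11921 genes tested were called lower in extraembryonic tissue and 24.5% higher. The 5 of 5 lower calls here stand against that 30.8%, and the median log2 fold change of the 5 was -2.07 against -0.01 over all genes tested. In bulk tissue, fewer cells of a type and less RNA per cell cannot be told apart.

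SOX17, an HMG-box factor that fixes the primitive endoderm fate, ran from 13.35 through 26.9 to 56.2 CPM in discs and from 0 through 8.37 to 23.4 CPM in extraembryonic samples. The ranges overlapped, with 14 of 22 discs above every extraembryonic sample, and the disc was higher in 21 of 22 embryos at a median ratio of 2.96. It fell by 1.33 on the log2 scale (SE 0.173, adjusted p = 1.56e-07), or 2.51-fold. The disc-to-extraembryonic ratio of SOX17 was below that of GATA4 in 19 of 22 embryos, by a mean of 0.68 ± 0.70 (SD, n = 22) on the log2 scale (adjusted p = 0.0058 over 10 pairs of genes, permutation test). Against FOXA2 (15 of 22 embryos), HNF4A and PDGFRA (18 each) the same difference did not pass the adjusted threshold (adjusted p = 0.121, 0.121 and 0.258, permutation tests). None of the 6 pairs without SOX17 passed it either.

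FOXA2, a forkhead factor that opens chromatin at endoderm genes, was the scarcest of the 5, at 0.400, 6.61 and 28.1 CPM (lowest, median, highest) in discs and 0, 1.1 and 2.39 CPM in extraembryonic samples. Discs lay above every extraembryonic sample in 17 of 22 cases, and 20 of 22 embryos had more in the disc (median ratio 5.37). FOXA2 fell by 2.25 on the log2 scale (SE 0.286, adjusted p = 1.01e-07). HNF4A, a nuclear receptor that drives apolipoprotein genes, ran from 6.80 through 50.4 to 78.6 CPM in discs and from 0 through 8.96 to 24.3 CPM in extraembryonic samples. Again 17 discs lay above every extraembryonic sample and 20 of 22 embryos were higher in the disc (median ratio 5.82), and HNF4A fell by 2.04 (SE 0.227, adjusted p = 7.59e-09).

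PDGFRA, the receptor, ran from 7.02 through 66.8 to 201.6 CPM in discs and from 0 through 13.9 to 77.5 CPM in extraembryonic samples. Only 9 of 22 discs lay above every extraembryonic sample, and 19 of 22 embryos had more in the disc (median ratio 4.28, from 0.506 to 32.4). PDGFRA fell by 2.07 on the log2 scale (SE 0.302, adjusted p = 1.06e-06), or 4.19-fold.

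**Figure D1:**
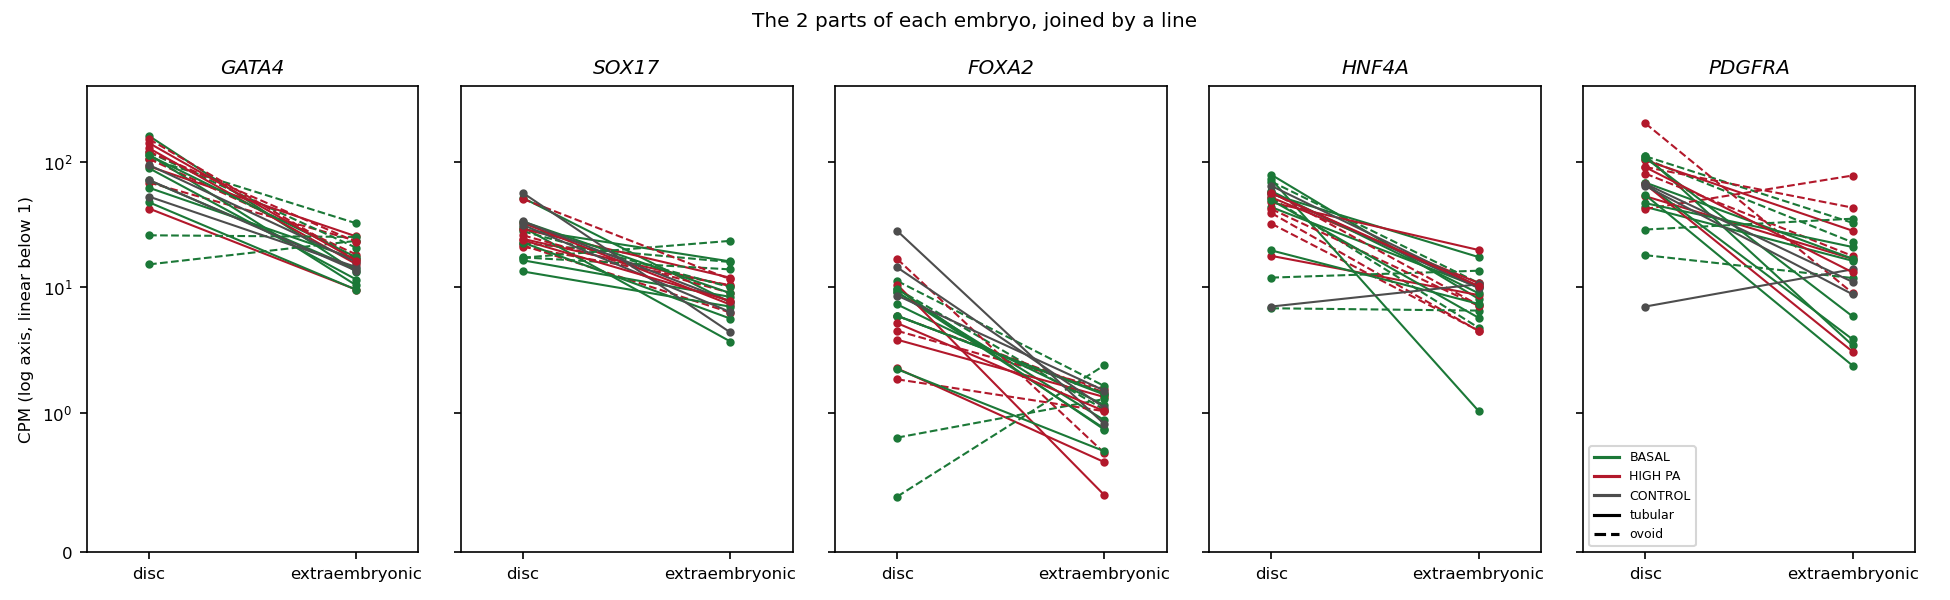
Level of each gene in CPM (log axis, linear below 1) in the disc and the extraembryonic tissue of the 22 embryos with both libraries over 10000 reads, joined by a line, coloured by medium and dashed for ovoid embryos. The lines fall in 21, 21, 20, 20 and 19 embryos for GATA4, SOX17, FOXA2, HNF4A and PDGFRA.

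The lines that rise belong to 4 embryos. ED BASAL replicate 12 held 15.2 CPM of GATA4, 17.2 of SOX17, 0.400 of FOXA2, 6.80 of HNF4A and 18 of PDGFRA, and was below its extraembryonic partner for the first 3. ED BASAL replicate 2 had 25.9 CPM of GATA4, 17.3 of SOX17, 0.823 of FOXA2, 11.9 of HNF4A and 28.8 of PDGFRA, and was below its partner for the last 3. Both were ovoid BASAL embryos and the only discs from their cow. Their epiblast markers summed to 156 CPM in replicate 12 and 333 CPM in replicate 2, the lowest of the discs, and their trophectoderm markers to 20712 and 22712 CPM. The part of cow and of other cells in these values was not tested. The other exceptions were shallow: ED CONTROL replicate 1 rested on 2 reads of HNF4A and 2 of PDGFRA, and ED HIGH PA replicate 5 was exceeded for PDGFRA alone. Without ED BASAL replicate 12 all 5 genes were still called, at log2 fold changes of -2.18, -1.42, -2.41, -2.13 and -2.15 for GATA4, SOX17, FOXA2, HNF4A and PDGFRA. Without both embryos of that cow they were -2.27, -1.47, -2.49, -2.23 and -2.27, all called. Shares of all genes called in these fits are not given here.

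Tissue and sequencing lane were nearly the same division, since 1 embryo had both parts in the same lane. With lane as a term, 0 of the 5 genes were called and 385 of all genes were, with log2 fold changes of -1.68 for GATA4 (adjusted p = 0.0791), -0.89 for SOX17 (0.513), -1.32 for FOXA2 (0.633), -2.14 for HNF4A (0.105) and -1.16 for PDGFRA (0.519), all by edgeR's quasi-likelihood test. Within lane 3, with 2 discs and 8 extraembryonic samples, the disc was the higher of the pair in 16 of 16 combinations for GATA4, SOX17, FOXA2 and HNF4A and in 14 of 16 for PDGFRA. Lane 1 held 10 discs and 2 extraembryonic samples, both from spherical embryos, of which EX HIGH PA replicate 9 had 0 reads of 4 of the genes. Against the other, EX HIGH PA replicate 10, 9, 10, 9, 6 and 5 of 10 discs were higher for GATA4, SOX17, FOXA2, HNF4A and PDGFRA. In lane 2, with 10 discs and 1 extraembryonic sample, it was higher in 9 or 10 of 10 combinations for each gene. Among ovoid embryos alone 3 of the 5 were called, as SOX17 (log2 fold change -0.77) and FOXA2 (-1.40) were not. The share of all genes called in that smaller fit is not given here, so the count is not read as particular to the 5 genes.

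The table also counts reads in introns, by a method not given in the sources used here. Per 1000000 exon reads of the library, intron reads of GATA4 were higher in the disc in 20 of 22 embryos, by 1.61 ± 1.07 on the log2 scale (SD, n = 22, p = 4e-05, two-sided permutation test). HNF4A introns were higher in 21 embryos, by 1.65 ± 1.27 (p = 6e-05, permutation). For SOX17 the difference was 1.31 ± 1.03 (20 embryos, p = 4e-05, permutation) and for PDGFRA 0.77 ± 1.02 (13 embryos higher and 4 equal, p = 0.00242, permutation). PDGFRA lay near the floor here, with 51 intron reads over the 22 discs and 32 over the 27 extraembryonic samples. No intron read of PDGFRA was found in 7 of these discs and 12 of these extraembryonic samples. How far the size of its difference depends on the constant added before taking log2 was not tested. Discs had the larger intron share over all genes, at 7.73, 8.91 and 16.8% of reads (lowest, median, highest) against 6.39, 7.20 and 11.2%. Per 1000000 intron reads of the library the differences were 1.40 ± 1.71 for GATA4 (19 embryos, p = 0.00134), 1.49 ± 1.86 for HNF4A (20 embryos, p = 0.0016), 1.03 ± 1.11 for SOX17 (18 embryos, p = 0.00054) and 1.27 ± 2.44 for PDGFRA (13 embryos higher and 4 equal, p = 0.0247), all by permutation tests. SOX17 stood apart in the share of its reads that fell outside its exons, 32.6% against a median of 6.05% over 10054 multi-exon genes with enough reads. Its 568 bases between exons held 2.90 reads per base and its exons 2.76. In PDGFRA the intron share was 1.19%, in GATA4 7.37% and in HNF4A 12.7%. FOXA2 has 1 exon in this table and yet 224 intron reads, as do 767 of 1016 single-exon genes with exon reads, so what these reads are is not given for FOXA2 and it is left out here.

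Gene lists of the pathway are counted over genes that passed the filter on low counts in each tissue on its own, since a gene that passed only through the disc had to be lower outside it. The 5 genes passed in each tissue. Of all 10336 such genes 24.6% were called lower in extraembryonic tissue and 27.4% higher, with a median log2 fold change of 0.04. Of 14 other transcription factors of hypoblast and endoderm 5 passed, of which 4 were lower and 1 higher, with a median of -1.45. PRDM1, a repressor used in endoderm and germ cells, had a log2 fold change of -4.62 and TBX3, a T-box factor, -1.46. FOXA1, the near relative of FOXA2, was the 1 that rose, by 0.66. Of 8 factors and antagonists of the anterior hypoblast, which patterns the head end of the disc, 3 passed, and HHEX, a homeobox repressor of early endoderm (-1.83), and FZD5, a WNT receptor (-1.90), were lower. The other 5 passed only with the discs in the fit, among them the secreted WNT antagonist SFRP1 (-6.85) and the homeobox factors OTX2 (-4.97) and LHX1 (-4.89). CER1 and GSC, an antagonist of NODAL and a homeobox factor, had 0 reads in the extraembryonic samples of the 23 embryos with both tissues. Counting 3 reads over that group as the floor, they were at least 405-fold and 333-fold lower there than in the paired discs.

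The 2 PDGF ligands tested of those in the list, PDGFA and PDGFB, were not called between the tissues. PDGFA had a log2 fold change of -0.17 (adjusted p = 0.133) and PDGFB -0.19 (adjusted p = 0.380), whereas PDGFRB, the other PDGF receptor and a marker of mesenchyme, fell by 4.58 but did not pass the filter in extraembryonic tissue alone. Of the genes of FGF signalling and its feedback 10 of 11 were lower in extraembryonic tissue, with a median of -2.09. The receptor FGFR1 fell by 3.80, and the log2 fold changes were -3.52 and -2.87 for the ERK-induced ETS factors ETV5 and ETV4 and -1.63 for the feedback inhibitor SPRED1, while FGFR2 had -0.04 and was not called.

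Products of yolk sac endoderm, many of them HNF4A targets, were lower in extraembryonic tissue for the 8 of 17 that passed in each tissue, with a median of -1.86. The log2 fold changes were -3.92 for the lipid carrier APOA2 and -3.36 for MTTP, which loads lipid onto APOB. APOB itself (-6.54) and the iron carrier TF (-8.10) did not pass in extraembryonic tissue alone. Of 7 endocytic and apical proteins of absorptive endoderm 4 passed, of which AMN, a part of the vitamin B12 receptor, was lower (-1.12) and DAB2 (1.05), LRP2 (0.75) and EZR (0.51) were higher. Basement membrane genes had a small median difference of -0.51, with 7 of 11 lower, for example COL4A2 (-0.91) and NID1 (-1.04), and NID2 higher (0.41). Of 14 trophectoderm markers 8 were higher in extraembryonic tissue and 0 lower (median 0.61). Of 7 epiblast markers 2 passed in each tissue, both lower, and of 17 markers of streak, definitive endoderm and mesoderm 2 passed, 1 lower and 1 higher. Summed, the epiblast markers had a median of 699 CPM in discs and 129 CPM in extraembryonic samples and those of streak, definitive endoderm and mesoderm 202 and 81.6 CPM. Their part in the difference of the 5 genes was not tested.

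Oocyte medium did not give a call for any of the 5 genes in discs. For HIGH PA against BASAL 0 of 11040 genes were called (0%) by edgeR's quasi-likelihood test, where 1004 had an unadjusted p below 0.05 and DESeq2 called 2. GATA4 was at 15.2, 88.6 and 160.1 CPM in BASAL discs (n = 11), at 42.3, 112.7 and 151.1 in HIGH PA discs (n = 8) and at 52.7, 71.5 and 94.0 in the 3 CONTROL discs. The 3 groups overlapped, and the log2 fold change of HIGH PA against BASAL was 0.36 (95% interval -0.30 to 1.01). PDGFRA was at 18, 67.1 and 111.7 CPM in BASAL, 42, 85.2 and 201.6 in HIGH PA and 7.02, 64.1 and 66.6 in CONTROL discs, again overlapping, with 0.54 (-0.20 to 1.28). The intervals were -0.48 to 0.51 around 0.02 for SOX17, -1.11 to 0.87 around -0.12 for FOXA2 and -0.81 to 0.72 around -0.04 for HNF4A. A doubling lay outside them for SOX17, FOXA2 and HNF4A, and a halving for all but FOXA2.

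FOXA2 had the largest fitted differences of the 5 from CONTROL. It was at 8.59, 14.4 and 28.1 CPM in the 3 CONTROL discs, of which the highest rests on 8 reads (ED CONTROL replicate 1), at 0.400, 7.30 and 11.2 CPM in BASAL discs and at 1.85, 4.84 and 16.8 CPM in HIGH PA discs. Of the CONTROL discs 2 lay above every BASAL disc and 1 of these above every HIGH PA disc as well, and the lowest lay within both groups. The log2 fold change was -1.33 for BASAL (SE 0.621, unadjusted p = 0.0417) and -1.45 for HIGH PA (SE 0.616, unadjusted p = 0.0266), with an adjusted p of 1.00 in each edgeR fit. Without ED CONTROL replicate 1 the values were -0.95 and -1.07. In both comparisons with CONTROL 0% of genes were called by edgeR, with 379 genes (BASAL) and 465 (HIGH PA) at an unadjusted p below 0.05 and 0 and 1 called by DESeq2. HNF4A was at 7.02, 56.5 and 64.1 CPM in CONTROL, 6.80, 51.4 and 78.6 in BASAL and 17.8, 44.7 and 57.3 in HIGH PA discs, and SOX17 at 31.3, 33.4 and 56.2, 13.35, 22.7 and 51.3, and 21.0, 25.1 and 50.4 CPM, and neither gene was called.

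In extraembryonic tissue 0 of 10969 genes were called for each of the 3 media comparisons (0% each), with 531, 372 and 1057 genes at an unadjusted p below 0.05 for HIGH PA against BASAL, BASAL against CONTROL and HIGH PA against CONTROL, and 0, 1 and 1 called by DESeq2. PDGFRA was at 2.37, 11.8 and 35.1 CPM in BASAL (n = 13), at 0, 17.3 and 77.5 in HIGH PA (n = 10) and at 8.78, 12.5 and 24.7 in the 4 CONTROL samples. The groups overlapped, and its log2 fold change for HIGH PA against BASAL, 0.93 (SE 0.417), had an unadjusted p of 0.0348 and an adjusted p of 0.999 in edgeR. With shape as a term it was 0.65. GATA4 was at 9.54, 16.7 and 32.3 CPM in BASAL, 9.57, 20.6 and 35.6 in HIGH PA and 11.1, 14.0 and 15.9 in CONTROL samples, with log2 fold changes of 0.11 between HIGH PA and BASAL, 0.46 for BASAL and 0.58 for HIGH PA against CONTROL. SOX17 was at 3.70, 8.96 and 23.4 CPM in BASAL, 0, 9.61 and 12.2 in HIGH PA and 4.36, 7.01 and 7.97 in CONTROL samples, and BASAL against CONTROL gave 0.76 (unadjusted p = 0.0253, adjusted p = 0.881, edgeR). FOXA2 and HNF4A differed by at most 0.25 on the log2 scale in either direction in these comparisons and were not called.

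**Figure D2:**
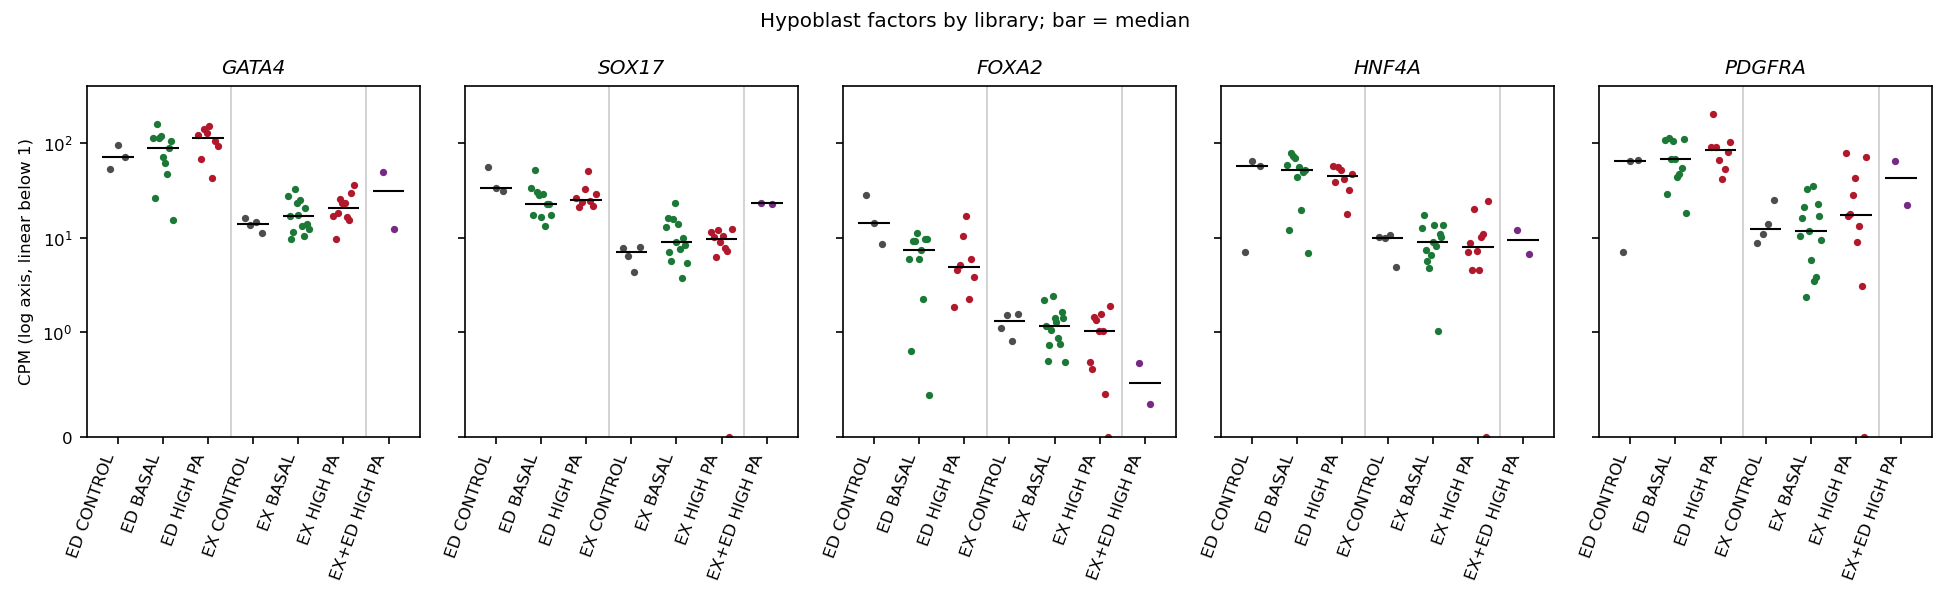
Level of each gene in CPM (log axis, linear below 1) in every library over 10000 reads, by tissue and medium, with a bar at the median. Disc medians (left) sit above extraembryonic medians (right) for each gene while the ranges overlap, media overlap within each tissue, and the 2 undissected HIGH PA embryos are at the far right.

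The difference between tissues was also compared between media and between shapes. For HIGH PA against BASAL 0% of genes had a called interaction (366 at an unadjusted p below 0.05 in edgeR, 0 called by DESeq2), and the 5 genes lay between -0.54 (GATA4, SE 0.414) and 0.14 (PDGFRA, SE 0.740) on the log2 scale. For ovoid against tubular embryos 0% were called as well, with 1707 genes at an unadjusted p below 0.05 and 67 called by DESeq2. In that test the log2 difference of extraembryonic tissue from disc was less negative in ovoid embryos by 1.43 for PDGFRA (SE 0.615, unadjusted p = 0.0281, adjusted p = 0.310), by 1.01 for GATA4 (SE 0.331, unadjusted p = 0.0052, adjusted p = 0.234) and by 0.69 for SOX17 (adjusted p = 0.333), none of which passed the adjusted threshold in edgeR. It was 1.01 for FOXA2 (SE 0.609, unadjusted p = 0.110) and 0.07 for HNF4A (SE 0.509, unadjusted p = 0.890). Without the 2 BASAL embryos of the cow with the low discs, both ovoid, the values were 0.83 for PDGFRA, 0.46 for GATA4, 0.41 for SOX17, 0.18 for FOXA2 and -0.72 for HNF4A.

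**Figure D3:**
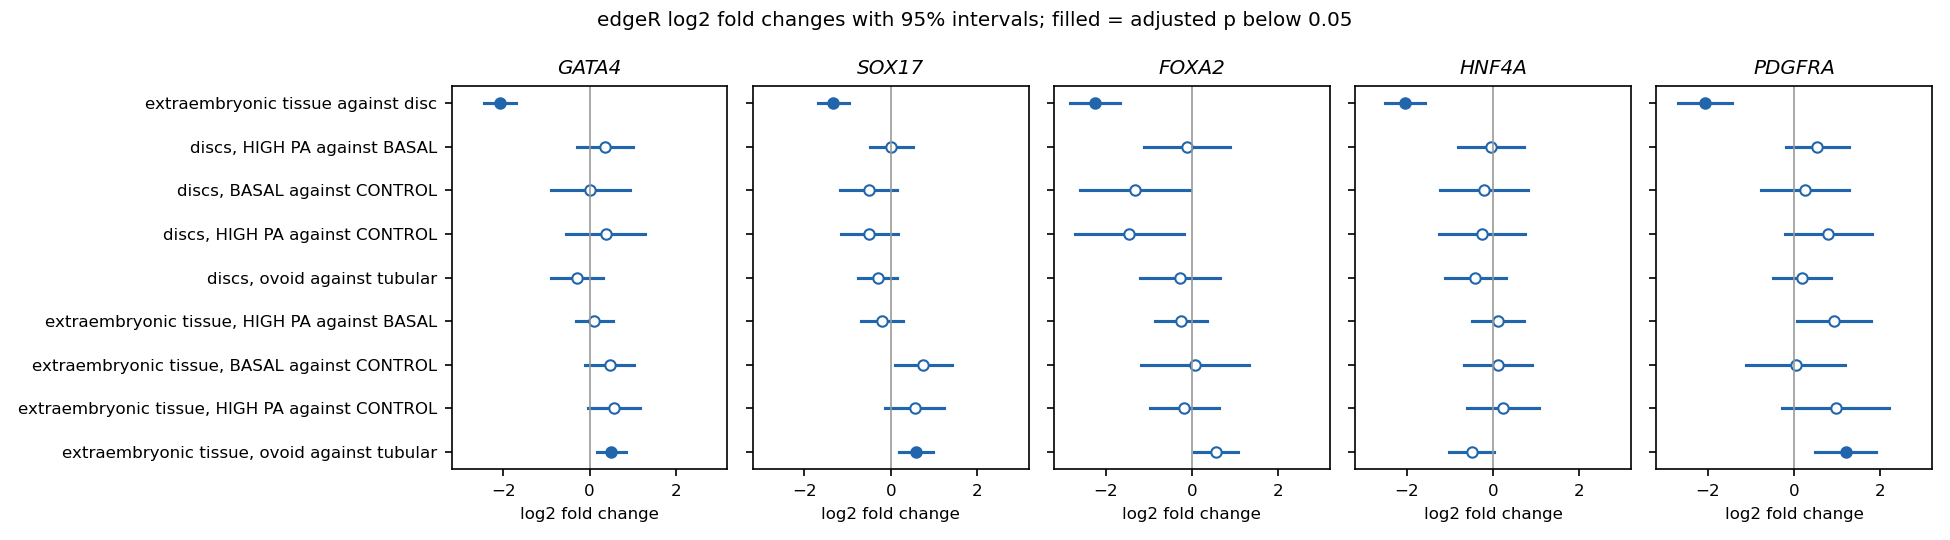
edgeR log2 fold changes of each gene with 95% intervals in 9 comparisons, with filled points for an adjusted p below 0.05. The filled points are the 5 tissue differences, all negative, and GATA4 (0.50), SOX17 (0.58) and PDGFRA (1.19) for ovoid against tubular embryos in extraembryonic tissue.

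Shape, which records how far the embryo has elongated, gave calls in extraembryonic tissue and not in discs. In discs 0% of genes were called between 8 ovoid and 15 tubular embryos by edgeR (806 at an unadjusted p below 0.05, 17 called by DESeq2). The log2 fold changes of ovoid against tubular discs were -0.29 for GATA4, -0.30 for SOX17, -0.27 for FOXA2, -0.41 for HNF4A and 0.18 for PDGFRA. GATA4 was at 15.2, 105.5 and 151.1 CPM in ovoid and 42.3, 90.2 and 160.1 in tubular discs, and PDGFRA at 18, 85.4 and 201.6 and at 7.02, 66.2 and 111.7 CPM, so that the ranges overlapped throughout.

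In extraembryonic tissue of ovoid embryos PDGFRA, GATA4 and SOX17 were higher than in that of tubular embryos. PDGFRA was at 8.98, 24.7 and 77.5 CPM in 9 ovoid and at 2.37, 10.7 and 28.2 CPM in 16 tubular samples. Of the ovoid samples 4 lay above every tubular one. Its log2 fold change was 1.19 (SE 0.341, adjusted p = 0.0284, edgeR), or 2.29-fold. GATA4 was at 11.1, 22.9 and 32.3 CPM against 9.54, 14.2 and 27.8, a rise of 0.50 (SE 0.163, adjusted p = 0.0451). SOX17 was at 6.28, 10.4 and 23.4 CPM against 3.70, 7.63 and 16, a rise of 0.58 (SE 0.194, adjusted p = 0.0483). For each of these 2 genes the ranges overlapped and 8 of 9 ovoid samples lay above the tubular median. The same 8 of 9 held for PDGFRA and for FOXA2, which was not called.

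FOXA2, at 0.711, 1.45 and 2.39 CPM in ovoid and 0.410, 0.989 and 2.21 in tubular samples, was at 0.57 on the log2 scale (SE 0.248, adjusted p = 0.110) and was not called. HNF4A pointed the other way without being called, at 4.49, 6.52 and 13.5 CPM against 1.03, 10.1 and 19.8, with -0.49 (SE 0.256, adjusted p = 0.169). Of all 10969 genes 12.7% were called between the shapes, 6.94% higher and 5.73% lower in ovoid embryos, and 3 of the 5 were called higher. The epiblast markers summed to between 62.9 and 279 CPM in ovoid and between 20.8 and 184 CPM in tubular samples (medians 164 and 127), and the trophectoderm markers to between 19665 and 29794 and between 19295 and 40398 CPM (medians 23995 and 23655). Tested singly, 2 of the 14 trophectoderm markers were called higher and 3 lower in ovoid samples, beside the shares of all genes just given. Markers of maternal cells summed to a median of 8.55 CPM in ovoid and 4.98 in tubular samples. Their part in the shape difference was not tested.

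**Figure D4:**
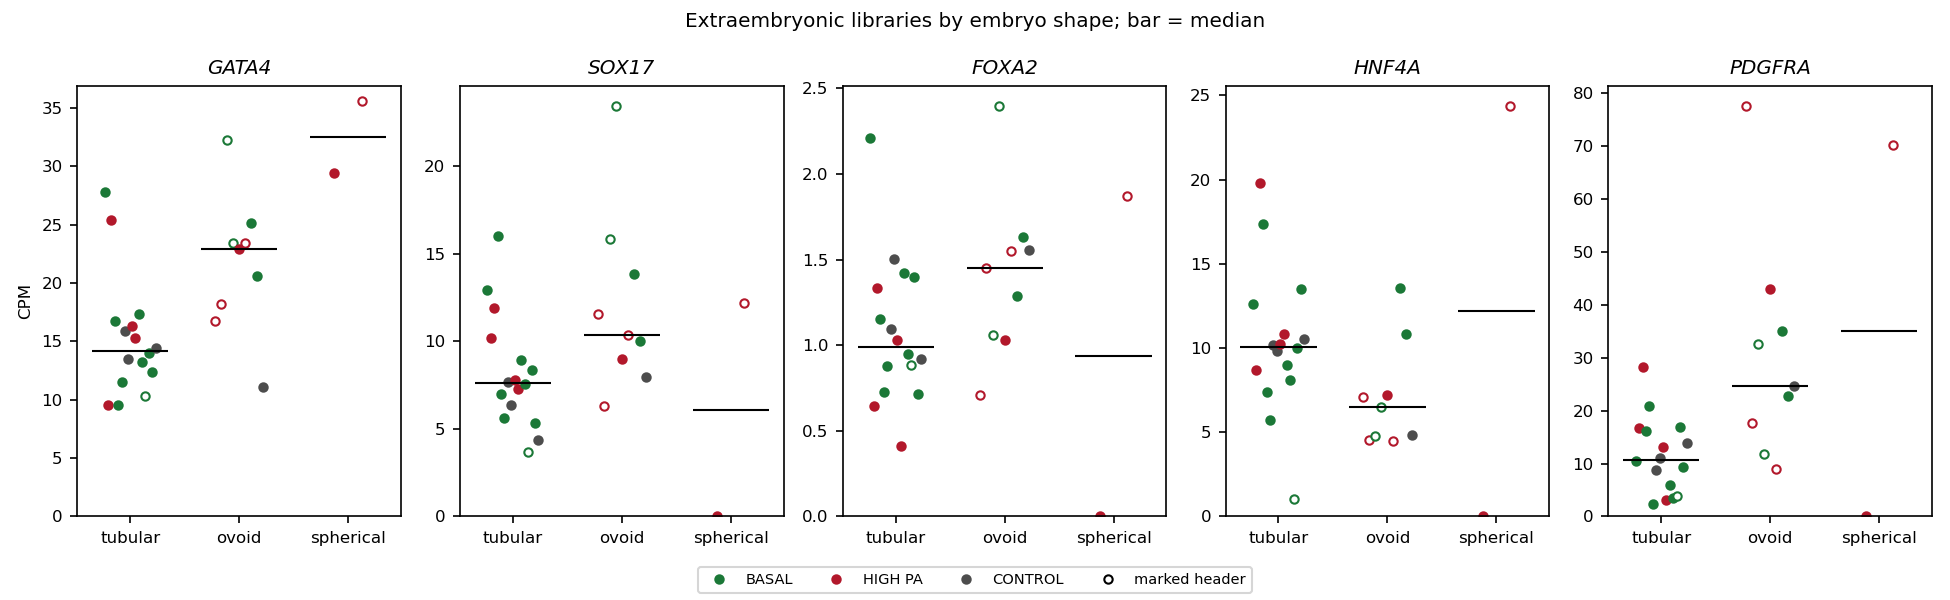
CPM of each gene in the 27 extraembryonic libraries over 10000 reads by embryo shape (16 tubular, 9 ovoid, 2 spherical), coloured by medium, with a bar at the median and open circles for libraries with a mark in the column header. Ovoid medians of PDGFRA (24.7 against 10.7 CPM), GATA4 (22.9 against 14.2) and SOX17 (10.4 against 7.63) exceed the tubular ones, and that of HNF4A (6.52 against 10.1) does not.

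The shape calls for GATA4 and SOX17 lay close to the threshold. With DESeq2, with its size factors, with low counts left in, with no sex term or without the library under 10000 reads, PDGFRA was the 1 of the 5 still called. With recipient cow as a block 0 of the 5 were called (PDGFRA 0.98, adjusted p = 0.348, edgeR), and with lane as a term 0 (PDGFRA 0.65, adjusted p = 0.319). Without the 2 ovoid embryos of the cow with the low discs 0 were called too (PDGFRA 1.15, adjusted p = 0.132, GATA4 0.52, adjusted p = 0.151, SOX17 0.38, adjusted p = 0.283), and 69 of all genes were. Within BASAL embryos PDGFRA gave 1.44 (adjusted p = 0.112) and within HIGH PA embryos 0.61 (adjusted p = 0.581, edgeR), and 0 of the 5 were called in either. Apart from the count of 69, calls over all genes in these alternative fits are not given here. The lost calls are therefore not read as particular to the 5 genes. A mark whose meaning is not given stood in the column headers of 5 of 9 ovoid and 1 of 16 tubular samples. PDGFRA was at 22.7 to 43 CPM in the 4 ovoid samples without it and at 2.37 to 28.2 CPM in the 15 tubular ones without it. Fitted without the marked libraries it gave 1.26 (adjusted p = 0.0930, edgeR).

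The counts of pathway genes that follow stand against those shares of 6.94% higher and 5.73% lower. They come from the main fit alone, which held neither cow nor lane as a term. Values of these genes in the alternative fits are not given here, so how far their calls hold there is not shown. Calls over all genes fell without the ovoid embryos of the cow with the low discs, as given above. The PDGFRA ligand PDGFA was also higher in ovoid extraembryonic tissue, at 44.2, 52.5 and 66.4 CPM against 23.6, 39.9 and 48.6 in tubular, or 0.52 on the log2 scale (SE 0.132, adjusted p = 0.0181), and PDGFA was 1 of 2 genes of its list tested. Of 11 FGF signalling genes 2 rose, the receptor FGFR4 by 1.70 (adjusted p = 0.00361) and the feedback inhibitor SPRY2 by 0.60. The lipid carriers APOA2 (1.87) and APOM (0.80) were 2 of 8 secreted products called, both higher. Basement membrane genes were lower for 4 of 11, among them the laminin chains LAMC1 (-0.80) and LAMA1 (-0.63) and NID2 (-0.74). Of 3 anterior hypoblast genes tested FZD5 fell by 1.33, and of 4 absorptive endoderm genes LRP2 fell by 0.82.

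The 2 spherical extraembryonic samples were both HIGH PA. EX HIGH PA replicate 10, with 1068407 reads, held 35.6 CPM of GATA4, 12.2 of SOX17, 1.87 of FOXA2, 24.3 of HNF4A and 70.2 of PDGFRA, the highest of the 27 samples for GATA4 and HNF4A. EX HIGH PA replicate 9 held 29.4 CPM of GATA4 and 0 reads of the other 4 genes, which at 340016 reads allows up to 8.82 CPM each, for counting error only. The undissected embryos, which hold both tissues, were at 49.7 and 12.4 CPM of GATA4, 23.4 and 22.6 of SOX17, 0.711 and 0.319 of FOXA2, 12.1 and 6.69 of HNF4A and 63.9 and 22.0 of PDGFRA, in the order spherical, ovoid.

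Across discs the genes did not vary as 1 group. On log2(CPM + 1) over 22 discs, GATA4 and HNF4A had Pearson's r = 0.84 (adjusted p = 2e-04 over the 10 pairs, permutation test with 100000 resamples; Spearman's rho 0.72), and r = 0.70 without the 2 discs farthest from the median of GATA4. HNF4A and PDGFRA had r = 0.78 (adjusted p = 2e-04, permutation; rho 0.57; 0.52 without 2 discs), and SOX17 and FOXA2 had r = 0.72 (adjusted p = 7e-04, permutation; rho 0.65; 0.63 without 2 discs). SOX17 and PDGFRA had r = -0.13 and FOXA2 and PDGFRA r = -0.01 (0.22 and -0.47 without 2 discs). For SOX17 and HNF4A r was 0.25 (rho 0.50, adjusted p = 0.0338, permutation; r = 0.59 without 2 discs). The discs left out for the pairs of SOX17 include ED CONTROL replicate 1, with 2 reads each of HNF4A and PDGFRA. Of the 10 pairs 6 passed the adjusted threshold. Without ED BASAL replicate 12, 3 did: GATA4 with HNF4A (0.77), HNF4A with PDGFRA (0.74) and SOX17 with FOXA2 (0.70). Within the 11 BASAL discs, which include that library, all 10 passed (r from 0.61 to 0.97), and within the 8 HIGH PA discs 0 did (r from -0.67 to 0.82). In BASAL discs without ED BASAL replicates 2 and 12, GATA4 had r from 0.74 to 0.85 with each other gene. All values of a disc share its library and depth.

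In the 27 extraembryonic samples the closest pairs were partly those of the discs. SOX17 had r = 0.71 with FOXA2, near the 0.72 of the discs, 0.67 with HNF4A and 0.67 with PDGFRA. Of the 10 pairs there, 6 passed the adjusted threshold. Without the 2 samples farthest from the median of SOX17, of which 1 is EX HIGH PA replicate 9, the r of SOX17 were 0.36, 0.46 and 0.56. HNF4A and PDGFRA, a close pair in discs too, had r = 0.56 (adjusted p = 0.00857, permutation test). That r was 0.18 without the 2 samples farthest from the median of HNF4A. GATA4 and HNF4A, the closest pair in discs, had r = 0.07. By Spearman's rho 3 pairs passed, SOX17 with GATA4 (0.56), with PDGFRA (0.55) and with FOXA2 (0.51). EX HIGH PA replicate 9 is at 0 for 4 of the genes.

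**Figure D5:**
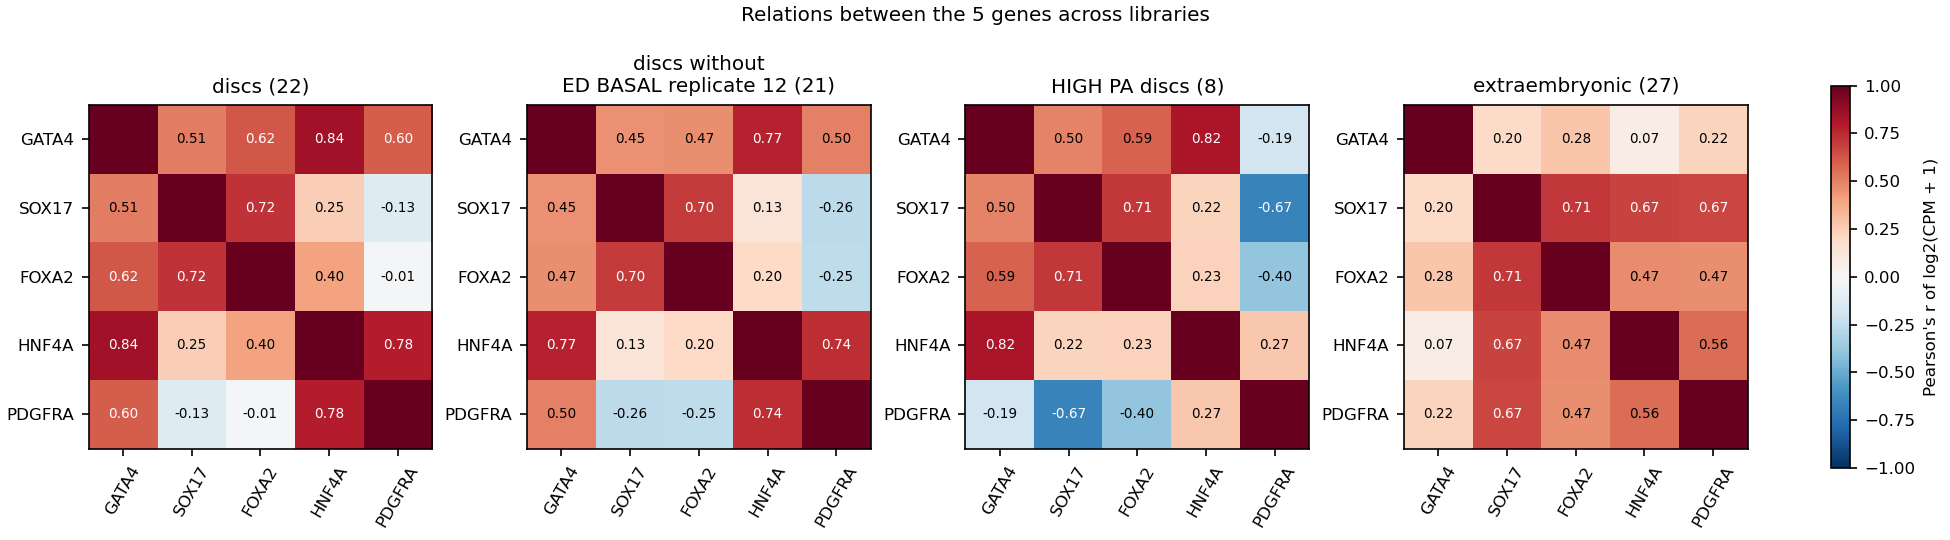
Pearson's r of log2(CPM + 1) for each pair of the 5 genes in 22 discs, in 21 discs without ED BASAL replicate 12, in 8 HIGH PA discs and in 27 extraembryonic samples. GATA4 with HNF4A is at 0.84, 0.77 and 0.82 in the 3 disc panels and at 0.07 in the last. SOX17 with FOXA2 is at 0.72, 0.70, 0.71 and 0.71, and HNF4A with PDGFRA at 0.78, 0.74, 0.27 and 0.56. In the 8 HIGH PA discs 0 pairs passed the adjusted threshold. Without the 2 discs farthest from the median of the first gene, the 3 pairs named are at 0.28, -0.48 and -0.22 in that panel.

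As a description, the genes with the most similar pattern over the 22 discs, out of 11039, were listed by Spearman's rho. For GATA4 they were FGFR1 (0.949), a receptor of FGF, IL4R (0.931), NME4 (0.916), EYA2 (0.912) and SLC7A8 (0.905). For HNF4A they were MADD (0.862), ACLY (0.848), MDC1 (0.840), RILPL1 (0.832) and ATP9A (0.83), of which ACLY makes the acetyl-CoA used in lipid synthesis. SOX17 had lower maxima, with ETV2 (0.790), an ETS factor of endothelial and blood precursors, PCYT2 (0.778), DGAT2 (0.763), CLCN2 (0.755) and C6orf47 (0.753). FOXA2 was nearest to RAPGEF3 (0.863), GPR137 (0.810), ZMYM3 (0.773), APBB3 (0.773) and TMC8 (0.770), and PDGFRA to PCK2 (0.841), ADGRF5 (0.826), ATXN1L (0.808) and 2 features with no gene name. None of the 5 genes was among the 5 nearest of another. FOXA2 was at rank 42 for SOX17 and HNF4A at rank 369 for GATA4.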

How the data were processed

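The deposited table gives, per the file headers, whole-number counts of exon reads, of uniquely placed exon reads and of intron reads for 53 libraries and 24596 features. Per the labels, libraries were TruSeq stranded mRNA, sequenced as paired 50-base reads with 12 samples to a lane. The submitters' processing notes name UMD3.1 and DESeq2 1.10.1. The aligner and counter are not given in the sources used here. Exon counts were used for all tests, intron counts for the intron comparison and unique counts for an alternative. Features with no gene name held 21.3% of exon reads and were kept. All 1378 pairs of libraries were compared and 0 were identical.

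Samples were grouped from their labels. edgeR 4.0.16 in R 4.3.3 (quasi-likelihood F test, TMM scaling, its default filter on low counts, Benjamini-Hochberg adjustment over all genes, threshold 0.05) was fitted with embryo as a block for tissue, with medium and sex for media, and with shape, medium and sex for shape. EX HIGH PA replicate 9, of undetermined sex, was dropped from fits with sex, so the spherical level there was 1 sample, and the undissected embryos from all comparisons. SEs came from the p and the fold change, and 95% intervals from the SE and the t quantile of the fit. CPM levels left out libraries under 10000 reads. Permutation tests were two-sided with 100000 resamples, on log2 values with a pseudocount of 1 CPM (0.1 CPM per kilobase, 0.5 for introns and for ratios between genes). The smallest p they could give was 2e-05, except for relations between genes, where the floor was lower. The comparison of tissue ratios between genes was chosen after seeing the data.

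Embryos of the same cow share an animal, which the p-values do not hold. Replicate numbers only name samples, and the pairing of tissues comes from embryo numbers in the labels. Deviations of genes from their group means had a median correlation of 0.184 in 22 pairs from the same embryo (16 over 0.1) and of 0.000472 in 572 pairs from different embryos (83 over 0.1).

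The 5 genes and the gene lists were chosen with earlier results of these data known. All 5 are described in each comparison. From each list up to 4 called genes of lowest p in each direction were taken for tissue and up to 3 for shape, with the ligands PDGFA and PDGFB and other genes given as not called or at 0 named after their values were seen. GATA6, NANOG, POU5F1 and CDX2 are not analysed here. The value of 1 other listed gene is not reported here. Alternatives were DESeq2 1.42.0, its size factors in edgeR, no filter, unique reads, left-out libraries, other terms or blocks, and subsets by medium and shape. The tests were tried on simulated data. Figures used matplotlib 3.10.9.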

Additional observations from a re-analysis of the deposited data

Results flagged for a closer look

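In 15 groups of 4 to 10 libraries, 4 single values lay far from the rest of their group by a gap test, which chance gives in about 1 of 20 groups. PDGFRA was at 201.6 CPM in ED HIGH PA replicate 2, on 269 reads, with the next HIGH PA disc at 102 CPM. SOX17 was at 50.4 CPM in ED HIGH PA replicate 5, on 6 reads, with the next at 32.5 CPM. In EX HIGH PA replicate 9 SOX17 was at 0, with 0 reads of 340016, and the next sample was at 6.28 CPM. HNF4A was at 4.86 CPM in EX CONTROL replicate 4, the only ovoid CONTROL embryo, with the next at 9.85 CPM.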

How the results depend on the processing

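Tissue differences of the 5 genes kept their direction in every alternative in which they were tested, and log2 fold changes ranged from -2.38 to -1.47 for GATA4, from -2.41 to -0.77 for SOX17, from -3.45 to -1.32 for FOXA2, from -2.23 to -1.95 for HNF4A and from -2.51 to -1.16 for PDGFRA. With the main fit counted, FOXA2 was tested in 14 fits and each other gene in 16. The labels pair the tissues by embryo, and with no replicate block for the embryo all 5 were still called (GATA4 -2.13), as were 6636 genes. With ovoid embryos only 3 of the 5 were called (SOX17 -0.77 and FOXA2 -1.40 were not), and the share of all genes called there is not given here. With lane as a term 0 were called (GATA4 -1.68, SOX17 -0.89, FOXA2 -1.32, HNF4A -2.14, PDGFRA -1.16). Of the fitted fold changes under alternatives 502 kept their direction and side of the threshold, 34 lost a call and 34 changed sign, the last only among values that were not called, except SOX17 for shape.

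For shape in extraembryonic tissue the 3 calls became 1 with DESeq2, its size factors, no filter, no sex term or without libraries under 10000 reads, and 0 with cow as a block, lane as a term, without marked libraries, without the embryos of the cow with the low discs, in BASAL only or in HIGH PA only (SOX17 -0.054). Calls over all genes in most of these fits are not given here. Disc relations passing the threshold went from 6 to 3 without ED BASAL replicate 12.

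In discs HIGH PA against BASAL, the changed signs were GATA4 -0.27 and SOX17 -0.38 with cow as a block, SOX17 -0.052 without ED BASAL replicate 12 and -0.076 without discs under 1000000 reads, and HNF4A 0.011 with shape as a term. For BASAL against CONTROL they were GATA4 -0.0010 with DESeq2 size factors, -0.00074 without libraries under 10000 reads, -0.10 without discs under 1000000 reads and -0.10 without ED CONTROL replicate 1, HNF4A 0.19 with cow as a block, 0.0019 without ED BASAL replicate 12 and 0.027 without ED CONTROL replicate 2, and PDGFRA -0.100 and -0.038 without the shallow discs and without ED CONTROL replicate 1. With single libraries left out these ran from -0.10 to 0.22 for GATA4, from -0.50 to 0.027 for HNF4A and from -0.038 to 0.54 for PDGFRA. For shape with cow as a block they were GATA4 0.31, FOXA2 0.74 and HNF4A 0.34. For the difference of the tissue effect between shapes HNF4A was -0.72 without the embryos of the cow with the low discs.

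In extraembryonic tissue HIGH PA against BASAL they were SOX17 0.20 and FOXA2 0.074 with cow as a block, GATA4 -0.13 and HNF4A -0.068 with shape, GATA4 -0.020 and HNF4A -0.064 with lane, and HNF4A -0.047 without marked libraries. For BASAL against CONTROL they were FOXA2 -0.0092 and PDGFRA -0.025 with DESeq2 size factors, FOXA2 -0.31 and PDGFRA -1.02 with cow as a block, and, leaving out CONTROL replicates 1 to 4 in turn, PDGFRA -0.093, PDGFRA -0.0028, FOXA2 -0.043 and HNF4A -0.095, in ranges that reached 0.14 for PDGFRA, 0.19 for FOXA2 and 0.21 for HNF4A. The cause of these changes was not tested. Lane, marked libraries, shallow discs, that cow and the scaling by intron reads were alternatives chosen after seeing the data. FOXA2, with 598 reads in all, is limited by depth in discs, where its lowest value rests on 1 read.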

Other observations

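In extraembryonic samples the gene nearest to PDGFRA in pattern was FGFR4, a receptor of FGF, with Spearman's rho of 0.876 over 27 libraries, a value looked up after the disc rule had been applied and given as a description.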
